A study of Homo sapiens with 16 samples.

Results

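A set of 7 long noncoding RNAs was followed through neural differentiation: MALAT1, NEAT1, MIAT, RMST, SOX2-OT, DLX6-AS1 and KCNQ1OT1. They were taken by name from a table of 57736 genes, in which each of the 7 had 1 row, and all 7 passed the filter on low counts. The cells were H9, an established line of human embryonic stem cells, carried from the undifferentiated state (D0) to D12, D30 and D70 by a dual-SMAD protocol for cortical neurons. Thiamet-G (TMG), an inhibitor of the O-GlcNAcase enzyme that takes O-GlcNAc off proteins, was kept on undifferentiated and differentiating cells at 40 µM, and control cells received its solvent, DMSO. Each of the 8 combinations of day and treatment had 2 libraries, 16 in all, which the study names biological replicates of this 1 line. Total RNA was depleted of ribosomal RNA before sequencing, so that RNAs held in the nucleus were measured with the rest.

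Long noncoding RNAs are transcribed and mostly spliced like messenger RNAs but are not known to be translated. MALAT1 is held in nuclear speckles, bodies rich in splicing factors, and NEAT1 is the scaffold around which paraspeckles form. MIAT is a nuclear RNA of neurons and retina that carries repeats of a splicing signal, RMST is known for its interaction with SOX2 in neurogenesis, SOX2-OT has the SOX2 gene inside an intron, DLX6-AS1 (Evf2 in the mouse) lies beside the DLX genes of the ventral forebrain, and KCNQ1OT1 silences neighbouring imprinted genes on the paternal chromosome.

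In GRCh37, with exons from GENCODE v44lift37, MALAT1 (ENSG00000251562) lay at chr11:65265111-65275544 and NEAT1 (ENSG00000245532) at chr11:65190245-65213011, next to each other on the plus strand. Both are known to end in an A-rich tract that folds back on U-rich stretches upstream of it, in place of a tail added to the RNA. The last 110 bases of each, the sequence that sets these transcripts apart from the other 5, are printed with every run of 8 or more bases that both share, in the same order, in capitals. They are chr11:65273478-65273587 for MALAT1, which lies inside the longer annotated gene, and chr11:65212902-65213011 for NEAT1, both on the plus strand.
MALAT1: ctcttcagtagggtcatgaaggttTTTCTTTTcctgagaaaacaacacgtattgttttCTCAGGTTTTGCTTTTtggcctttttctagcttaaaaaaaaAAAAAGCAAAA
NEAT1: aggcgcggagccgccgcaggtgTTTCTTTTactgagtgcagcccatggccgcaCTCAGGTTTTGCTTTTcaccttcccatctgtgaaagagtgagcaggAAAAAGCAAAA
The capitals cover 35 bases of each, and the longest run, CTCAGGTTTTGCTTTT, is 16 bases. Of 12805 annotated long noncoding RNA genes searched on the sense strand, 2 had TTTTGCTTTT followed by AAAAAGCAAAA within 110 bases, which were these 2. Both patterns were taken from these 2 genes, so their own match was fixed in advance. The search shows only that no other gene matched.

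MIAT (ENSG00000225783) lay at chr22:27042375-27072438 on the plus strand. Its longest transcript, of 10142 bases, held the letters ACTAAC 14 times, and 5 of them fell within 131 bases of exon at chr22:27067382-27067512, shown with each ACTAAC in capitals.
MIAT: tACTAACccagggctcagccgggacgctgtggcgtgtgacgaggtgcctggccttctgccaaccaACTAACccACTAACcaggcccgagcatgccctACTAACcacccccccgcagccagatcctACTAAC
Among 12782 long noncoding RNAs of at least 140 bases, 1, MIAT itself, had 5 or more ACTAAC on the sense strand in a window of that length. The cutoff of 5 was the highest count in MIAT's own windows, so MIAT passed by construction. The other members were RMST (ENSG00000255794) at chr12:97824662-97992193 and SOX2-OT (ENSG00000242808) at chr3:180707550-181554668, both on the plus strand, and DLX6-AS1 (ENSG00000231764) at chr7:96584453-96643400 and KCNQ1OT1 (ENSG00000269821) at chr11:2618538-2721233, both on the minus strand. Exons of 5 members overlap those of a gene on the other strand, as MALAT1 does with TALAM1, which had no row in the counts, and ENSG00000270117, which had 0 counts, DLX6-AS1 with DLX6, KCNQ1OT1 with KCNQ1, SOX2-OT with DNAJC19 and MIAT with ENSG00000206028. MIAT also shares exon sequence with MIATNB on its own strand. The library kit named in the labels does not mark strand, so reads from these shared stretches cannot be told apart.

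Library totals ran from 10334908 to 19836878 counts. Levels are given in CPM, counts divided by the TMM-scaled library size in units of 1e+06, and differences as log2 fold changes with their SE from edgeR's quasi-likelihood fit of all 16 libraries, with p-values adjusted by Benjamini-Hochberg over 24249 genes and called at 0.05. The summed level of 7 stem cell markers was between 4014 and 4706 CPM on D0 and between 9.51 and 17.2 CPM on D70. Of the 16 libraries, 3 stood apart in mesenchymal markers. The summed level of 7 mesenchymal markers (collagen genes COL1A1, COL1A2 and COL3A1, with DCN, LUM, POSTN and TWIST1) was 29842 CPM in the second TMG library of D30, 45349 in the second control library of D70 and 59560 in the second TMG library of D70, against 3679 to 7334 in the other 5 libraries of those days. Earlier, this sum was 153 to 171 CPM on D0 and 1048 to 1837 CPM on D12. The D70 TMG library of the pair also had 100 CPM of summed neural progenitor markers and 230 of neuron markers, against 827 and 1286 in the first. Roof plate and choroid plexus markers, none of the 6 at 0 on D70, summed to 10306 CPM in the first control and 3164 CPM in the first TMG library of D70, against 238 and 14.7 CPM in the second libraries and at most 518 CPM on D30. They summed to 7.11 to 9.51 CPM on D0 and 229 to 394 CPM on D12. Pigment epithelium markers reached 1112 CPM in the second control library of D70, against 19.1 to 234 CPM in the other 7 libraries of D30 and D70. Members' results that rest on the 3 mesenchymal libraries are given with and without them, and without them each D70 value comes from the library of its pair that is high in choroid plexus markers, whose part was not tested. The counts come from mixed cells, so fewer cells of a type and less RNA per cell cannot be told apart.

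MALAT1 and NEAT1 rose as cells left the stem cell state, in control and in TMG cells. Summed mesenchymal markers were also higher in every library after D0 than on D0, and their part in these rises was not tested. In control cells, MALAT1 was 5.88-fold and NEAT1 18.5-fold higher on D12 than on D0, and 10.3-fold and 34.04-fold higher on D30. KCNQ1OT1 and SOX2-OT were higher on D30 by 4.30-fold and 6.67-fold. MIAT passed no test between days with all libraries. RMST passed only with particular libraries left out, and DLX6-AS1 had few counts before the TMG cells of D70.

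Of the 7 members, 2 were called between D12 and D0 in control cells, where edgeR called 16.7% of all genes tested. Between D30 and D0 the count was 4 of 7 against 30.6% of all genes, and between D70 and D0 it was 5 of 7 against 29.8%. All of these were higher on the later day, where 6.97%, 14% and 15% of all genes were called higher. SOX2-OT alone was called between D30 and D12 and between D70 and D12, where 3.6% and 11.1% of genes were called, and no member was called between D70 and D30, where 0.384% of genes were. In TMG cells, 2 members passed on D12 over D0 (16.4% of all genes), 5 on D30 (27.7%) and 3 on D70 (29%). No member passed between the later days of TMG cells, where 0.511% of genes were called for D30 over D12, 5.15% for D70 over D12 and 0.00825% for D70 over D30. Control and TMG cells share no library in these comparisons. Without the 3 libraries high in mesenchymal markers, a setting chosen after seeing the data, D70 control cells, D30 TMG cells and D70 TMG cells have 1 library each, whose spread is assumed to be that of the other groups, and 5 residual degrees of freedom are left. The counts of members in control cells were 4, 5 and 5 over D0, 3 on both D30 over D12 and D70 over D12, and 2 on D70 over D30. Of 25404 genes tested, edgeR then called 8234, 11391 and 9601 over D0, and 4186, 6293 and 2424 between the later days. In TMG cells 4, 5 and 5 members were called over D0, then 2, 3 and 0, where 8040, 8731 and 8913 genes were called over D0, then 1300, 3638 and 65.

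**Figure D1:**
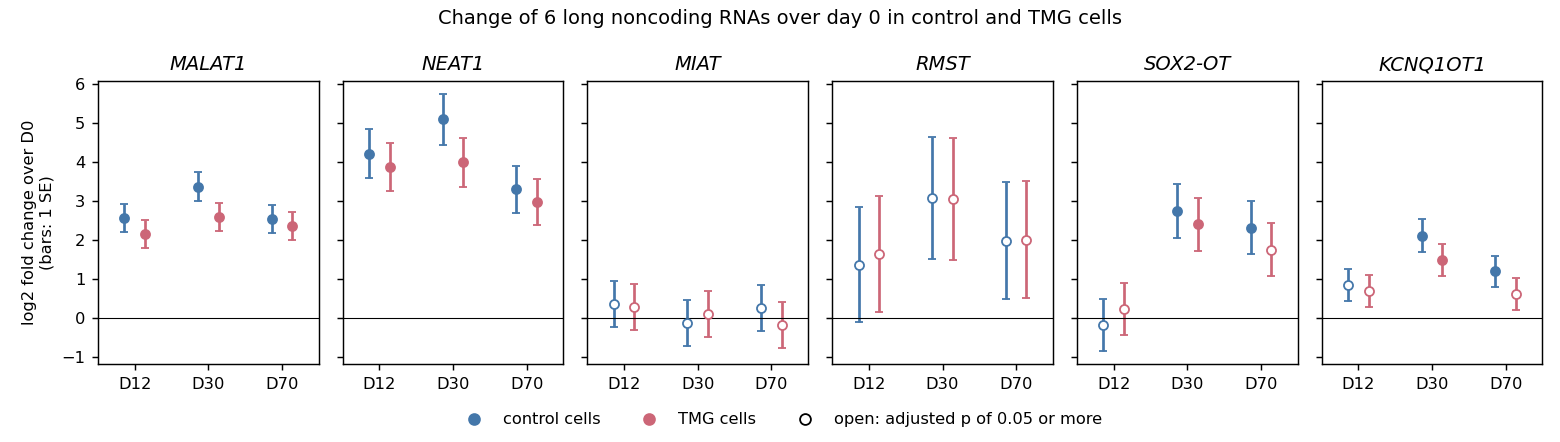
Log2 fold change over D0, with bars of 1 SE from edgeR, for 6 members on D12, D30 and D70 in control and TMG cells; open points did not pass an adjusted p of 0.05. MALAT1 and NEAT1 are filled at every day, MIAT lies near 0, and the bars of RMST are the longest; DLX6-AS1, with 1 count over the 4 libraries of D0, is left out.

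Within a library, levels can be compared between genes only per length. Per kilobase of annotated exon, the order of the 7 in control cells of D30 was MALAT1 at 4922 CPM, NEAT1 at 477, RMST at 59.5, MIAT at 23.6, KCNQ1OT1 at 21.5, SOX2-OT at 0.617 and DLX6-AS1 at 0.0197. On D0 it was MALAT1 at 477 CPM per kilobase, MIAT at 26.1, NEAT1 at 14.01, RMST at 7.02, KCNQ1OT1 at 4.99, SOX2-OT at 0.0925 and DLX6-AS1 at 0.00167. NEAT1 thus stood below MIAT on D0 and above it on D30. Neighbours in this order whose 2 libraries gave overlapping levels, and so did not differ beyond their spread, were MIAT and NEAT1 on D0, and MIAT and KCNQ1OT1 on D30. The exon lengths come from newer gene models than those of the counts and sum every annotated isoform, as for SOX2-OT, with 32836 bases of exon and a longest transcript of 4289 bases. Per kilobase of the longest transcript, RMST stood above NEAT1 on D0, at 21.0 against 14.02 CPM.

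The 7 members together took 0.559% of a library's counts at the lowest, in D0 control cells, and 7.13% at the highest. MALAT1 alone ran from 0.417% to 5.69%. All other genes annotated as long noncoding RNA took between 2.40% and 3.29% in every library, so the class outside these 7 did not widen with them. MALAT1 had the most counts of any gene in 6 of the 8 libraries of D12 and D30.

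**Figure D2:**
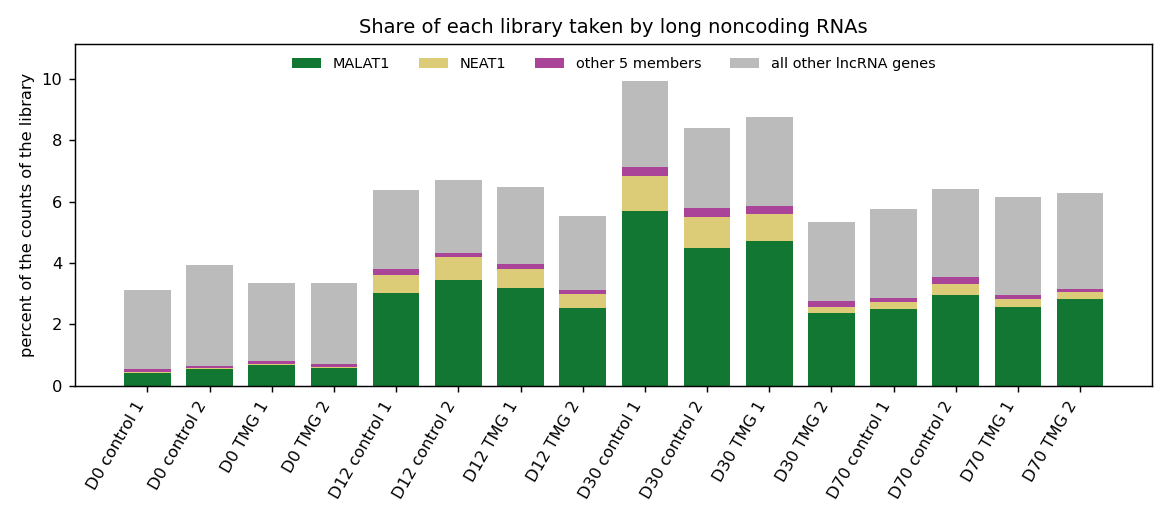
Percent of each library's counts taken by MALAT1, NEAT1, the other 5 members and all other long noncoding RNA genes, as stacked bars for the 16 libraries. The MALAT1 segment grows from 0.417% in the lowest D0 library to 5.69% in the highest library, while all other long noncoding RNA genes stay between 2.40% and 3.29%.

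MALAT1 stood at 3977 and 5986 CPM in the 2 control libraries of D0 and at 6137 and 5811 CPM in those with TMG. On D12 it was 26257 and 32340 CPM in control and 29395 and 23762 CPM in TMG cells. On D30 the values were 58009 and 44710 CPM, and 47333 and 24761 CPM with TMG, the last of these in the library with 29842 CPM of mesenchymal markers. D70 gave 28601 and 28926 CPM in control cells and 28707 and 32403 CPM in TMG cells. Every library after D0 was above every library of D0, and the 3 highest were of D30. Over D0, the log2 fold change in control cells was 2.56 (SE 0.36, adjusted p = 0.00194 by edgeR) on D12, 3.37 (SE 0.37, adjusted p = 0.00022) on D30 and 2.53 (SE 0.36, adjusted p = 0.000685) on D70. In TMG cells it was 2.15, 2.59 and 2.35, with adjusted p of 0.00363, 0.000821 and 0.00103. The step from D12 to D30 in control cells, 0.81 (SE 0.34), had an adjusted p of 0.209.

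NEAT1 was at 189 and 449 CPM in control and 346 and 337 CPM in TMG cells on D0, and at 4821 and 7002 CPM against 5652 and 4330 CPM on D12. On D30 the control libraries gave 11690 and 10023 CPM, and the TMG libraries 8710 and 2116 CPM. By D70 all 4 libraries lay between 2620 and 3567 CPM. The lowest of the D30 values, 2116 CPM, belongs to the TMG library with high mesenchymal markers, and the D70 libraries with still higher marker sums had 3567 CPM in control and 2712 CPM in TMG cells, against 2692 and 2620 CPM in their replicates. In control cells the log2 fold change over D0 was 4.21 (SE 0.63, adjusted p = 0.00258 by edgeR) on D12, 5.09 (SE 0.66, adjusted p = 0.000466) on D30 and 3.29 (SE 0.60, adjusted p = 0.00283) on D70. TMG cells gave 3.87, 3.99 and 2.96, with adjusted p of 0.00336, 0.0015 and 0.00461. From D30 to D70 the difference in control cells was -1.79 (SE 0.57, adjusted p = 0.145). DESeq2 called this difference, at -1.80 with an adjusted p of 0.0219, as did edgeR without the 3 libraries, at -2.02 with 0.0321. In none of the fits that left out 1 library did MALAT1 or NEAT1 lose a call over D0.

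**Figure D3:**
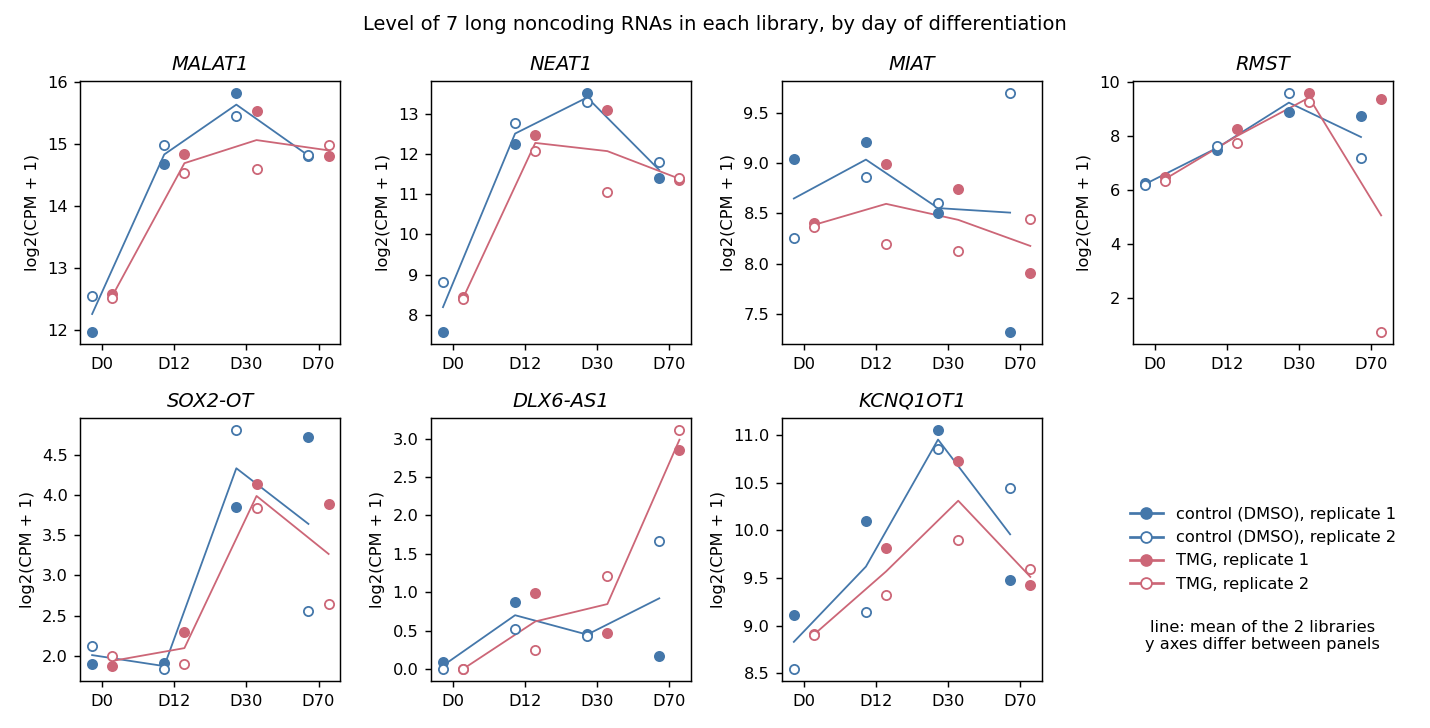
Level of each member as log2(CPM + 1) in every library by day, one panel for each of the 7; filled points are replicate 1, open points replicate 2, blue control and red TMG cells, and lines join the mean of each pair. MALAT1 and NEAT1 climb from D0 to D12 and D30 in both treatments, MIAT is level, and the D70 TMG points of RMST are 662 and 0.647 CPM.

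The messenger RNAs for proteins of the bodies that hold these RNAs were also counted. No protein was measured, and protein names here stand for the RNA of their genes. Of 13 genes for paraspeckle proteins tested, 1 was called lower and 0 higher on D12 over D0 in control cells. On D30 and D70 8 were called lower on each day, again with 0 higher. Of all genes tested, 9.71%, 16.7% and 14.7% were called lower on the 3 days. The median log2 fold change of the list was -0.47, -0.87 and -0.79 on the 3 days, where that of all genes tested was 0.0033, -0.020 and 0.027. SFPQ, which binds NEAT1, fell from 638 ± 174 CPM (SD, n = 2) on D0 to 181 ± 7.44 CPM on D30, a log2 fold change of -1.82 (SE 0.29, adjusted p = 0.00129 by edgeR). DAZAP1 fell by 1.64 (0.000505) and EWSR1 by 0.98 (0.0015) on D30. NONO, the partner of SFPQ, fell by 0.82 on D70 (adjusted p = 0.00464), as did PSPC1 by 1.28 (0.00301). The summed level of the list was between 4174 and 4610 CPM in the 4 libraries of D0 and between 2296 and 3045 CPM in the 8 of D30 and D70, so the 2 sets of libraries did not overlap.

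Among 16 genes for nuclear speckle proteins, 5 were called lower on D12 over D0 in control cells, 6 on D30 and 9 on D70. None was called higher on any of the 3 days, where the shares of all genes called lower were 9.71%, 16.7% and 14.7%. The medians were -0.26, -0.38 and -0.59, against 0.0033, -0.020 and 0.027 for all genes. Splicing factor SRSF2 fell by 1.64 (SE 0.29, adjusted p = 0.00502 by edgeR) on D12 and by 2.29 (SE 0.29, adjusted p = 0.000456) on D30, from 411 ± 131 CPM to 84.2 ± 3.23 CPM. SRSF7 fell by 1.93, SRSF3 by 1.75 and PNN, a speckle protein also found at cell junctions, by 1.64 on D30. SRSF1 fell by 1.03 and SRRM1 by 1.14 on D70. Their summed level ran from 6193 to 6285 CPM on D0 and from 4176 to 4670 CPM on D30 and D70.

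FRMD8 and SLC25A45, genes next to NEAT1 and MALAT1, were not called over D0 in control cells. LTBP3, a neighbour that encodes a binding protein of latent TGF-beta, rose by 2.64 (SE 0.52, adjusted p = 0.00391 by edgeR) on D30 and by 4.19 (SE 0.55, adjusted p = 0.000501) on D70.

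KCNQ1OT1 was at 553 and 372 CPM in control and 481 and 476 CPM in TMG cells on D0. On D12 it was 1093 and 565 CPM, and 902 and 639 CPM with TMG. On D30 it was 2133 and 1848 CPM in control and 1695 and 953 CPM in TMG cells, of which the first 3 were the highest of all libraries. D70 gave 711 and 1391 CPM, and 689 and 772 CPM with TMG. All libraries of D30 and D70 were above all those of D0. KCNQ1OT1 rose on D30 over D0 by 2.11 (SE 0.42, adjusted p = 0.00419 by edgeR) in control and by 1.47 (SE 0.41, adjusted p = 0.0233) in TMG cells. The TMG call was lost without either D0 library and without the first D30 library, at 0.99 to 1.47 (adjusted p from 0.122 to 0.164), and held at 1.82 (0.0213) without the second D30 library. Its call on D70 in control cells, at 1.18 (SE 0.41), had an adjusted p of 0.0494 and was lost in 9 of the 16 fits that left out 1 library, among them those without the second control library of D70, at 0.63 (0.314), and either control library of D0, at 1.53 (0.0833) and 0.92 (0.245). Without the 3 libraries high in mesenchymal markers it was 0.65 (0.196), while D30 over D12 passed at 1.29 (0.023) and D70 over D30 at -1.49 (0.0498).

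KCNQ1, the potassium channel gene within which KCNQ1OT1 is transcribed, fell from 5.01 ± 0.624 CPM (SD, n = 2) on D0 to 0.508 ± 0.254 CPM on D12 and 0.699 ± 0.208 CPM on D30 in control cells, log2 fold changes of -3.27 (SE 0.68, adjusted p = 0.0104 by edgeR) and -2.86 (SE 0.68, adjusted p = 0.00987). It was at 3.23 ± 1.02 CPM on D70, where the difference from D0 did not pass (adjusted p = 0.453). PHLDA2, an imprinted gene of the same cluster, fell by 2.39 (adjusted p = 0.0281) on D30 and 2.66 (0.0198) on D70, though its D0 control level, 8.29 ± 7.27 CPM, differed widely between the 2 libraries. CDKN1C, the imprinted inhibitor of the cell cycle, was at 69.3 ± 61.0 CPM on D0 and 113 ± 3.96 CPM on D30, with an adjusted p of 0.342. SLC22A18, NAP1L4, TSSC4 and CD81 were not called over D0 on any of the 3 days.

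MIAT had overlapping levels on most days. Its level was 527 and 303 CPM in control and 337 and 329 CPM in TMG cells on D0, and 592 and 463 CPM against 508 and 292 CPM on D12. On D30 it was 362 and 388 CPM, and 429 and 278 CPM with TMG. D70 gave 158 and 830 CPM in control and 239 and 347 CPM in TMG cells. The widest pair was that of D70 control cells, 158 and 830 CPM, of which the higher is the library with 45349 CPM of mesenchymal markers. Between days, the log2 fold changes in control cells ran from -0.49 to 0.40 with adjusted p of 0.687 or more. Without the second control library of D70, MIAT was lower on D70 than on D0 by 1.39 on the log2 scale (a log2 fold change of -1.39, adjusted p = 0.0496 by edgeR) and than on D12 at -1.75 (0.045), and without all 3 libraries the value over D0 was -1.36 (0.0213). The D70 over D0 value also turned, to -0.098, without the second control library of D0.

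TPST2, a tyrosine sulfotransferase gene near MIAT, fell by 1.49 (SE 0.49, adjusted p = 0.0398 by edgeR) on D30. The lens crystallin genes CRYBA4 and CRYBB1, also near MIAT, were higher on D70 than on D0 in control cells, at 43.2 ± 3.14 and 72.6 ± 0.873 CPM (SD, n = 2) against 0.441 ± 0.425 and 0.725 ± 0.0634 CPM, with adjusted p of 0.0206 and 0.022. In TMG cells of D70 they were at 15.7 and 36.98 CPM in the first library and had no count in the second.

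RMST held the sharpest contrast between replicates. In control cells its level was 74.1 and 70.6 CPM on D0, 175 and 195 CPM on D12, 466 and 760 CPM on D30 and 427 and 141 CPM on D70. TMG cells gave 86.7 and 78.9, then 299 and 213, then 763 and 601 CPM, and on D70 662 and 0.647 CPM. Those last values are 8376 counts in the first library and 7 in the second, the one with 59560 CPM of mesenchymal markers and 100 CPM of neural progenitor markers. A gap as large, 9.73 on the log2 scale, was found in this pair for 14 of 24249 genes, or 0.0577%. Up to D30, the 2 libraries of each pair differed by at most 1.63-fold, and the days did not overlap in either treatment.

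With all 16 libraries RMST passed in no comparison, and its SE over D0 in control cells was 1.48 to 1.57. Its log2 fold change over D0 in control cells was 1.36 on D12, 3.08 on D30 and 1.97 on D70, with adjusted p of 0.565, 0.158 and 0.343 by edgeR. Leaving out either TMG library of D70 brought the SE of D30 over D0 to 0.46, and the difference passed at 3.08 (adjusted p = 0.000815 and 0.000791). Without the 3 libraries high in mesenchymal markers, which leaves 1 library each in D70 control, D30 TMG and D70 TMG cells, RMST rose over D0 by 1.37 (adjusted p = 0.00274) on D12, 3.12 (2.58e-05) on D30 and 2.60 (0.000114) on D70 in control cells, and by 1.62 (0.00116), 3.19 (9.24e-05) and 3.02 (6.86e-05) in TMG cells. NEDD1, the gene beside it that encodes a centrosome protein, was not called, with 0.12, 0.39 and 0.046 on the 3 days.

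SOX2-OT was low on D0 and D12, between 2.57 and 3.90 CPM in all 8 libraries. On D30 it was 13.4 and 27.0 CPM in control and 16.5 and 13.3 CPM in TMG cells. D70 gave 25.3 and 4.91 CPM, and 13.7 and 5.27 CPM with TMG. The 2 lower values of D70 are those of the libraries high in mesenchymal markers, and they still lay above all libraries of D0 and D12. SOX2-OT rose over D0 by 2.74 (SE 0.70, adjusted p = 0.0138 by edgeR) on D30 and 2.31 (SE 0.69, adjusted p = 0.0276) on D70 in control cells, and by 2.39 (SE 0.69, adjusted p = 0.0261) on D30 in TMG cells. Over D12 it rose by 2.93 (adjusted p = 0.0472) on D30 and 2.501 (0.042) on D70. On D70 over D0 in TMG cells, 1.75 (SE 0.68) did not pass, with an adjusted p of 0.0751, and passed at 2.29 (0.00176) without the 3 libraries. Leaving out 1 library ended many of these calls. The values of D30 over D0 stayed between 2.14 and 3.16 in control cells, against 2.74 with all libraries. In TMG cells they stayed between 2.23 and 2.54, against 2.39. In control cells, D30 over D0 was lost without either D0 library or the second D30 library (adjusted p from 0.0713 to 0.0858). D70 over D0 was lost without either D0 library (0.139 and 0.109) and without the first D70 library, where it was 0.69 (0.425). In TMG cells, D30 over D0 was lost whichever of its 4 libraries was left out (0.0582 to 0.141). Of the 16 fits that left out 1 library, D30 over D12 was lost in 12 (up to 0.255) and D70 over D12 in 13, with 0.88 (0.399) without the first D70 control library. Between 39 and 539 reads of SOX2-OT were counted in a library.

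SOX2, the transcription factor gene inside SOX2-OT, did not follow it. It stood at 190 and 261 CPM in D0 control cells, 109 and 90.9 CPM on D12, 124 and 157 CPM on D30 and 112 and 50.7 CPM on D70. It fell by 1.47 (SE 0.45, adjusted p = 0.0323 by edgeR) on D70 over D0, and differed by -1.17 (0.0994) on D12 and -0.68 (0.269) on D30. ATP11B, downstream of both, rose by 0.88 (0.0446) on D30 and 0.91 (0.04) on D70, and FXR1 and DNAJC19 were not called on any of the 3 days.

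DLX6-AS1 was close to the limit of counting for most of the course. Over the 4 libraries of D0 it had 1 count, and the 0 counts of its TMG pair allowed up to 3 counts over the pair. It had 17 and 8 counts in control and 19 and 3 in TMG cells on D12, then 4 and 7 against 4 and 14 on D30. On D70 the control libraries had 2 and 27 counts, and the TMG libraries 79 and 83. In CPM these last were 0.129 and 2.17 against 6.24 and 7.68, the highest of the course. From summed counts, D12 control cells had 19.7 times the D0 level (95% exact binomial interval 3.23 to 810), D30 10.97 times (1.59 to 472) and D70 31.6 times (5.24 to 1290), intervals that cover counting error only. TMG cells had 0 counts on D0. With 3 counts over the D0 pair in their place, the ratios were 7.05 on D12, 9.77 on D30 and 78.2 on D70. These ratios include neither the error of the later counts nor the spread between libraries, so they are not lower bounds. edgeR called DLX6-AS1 over D0 on D70 in control cells (adjusted p = 0.044) and on D30 and D70 in TMG cells (0.0349 and 0.00415). D12 over D0 did not pass, at 3.99 in control cells (0.118) and, over 0 counts, a fitted 6.19 in TMG cells (0.0672). Without the 3 libraries these 2 values were 4.01 and 6.27. In TMG cells, D70 over D12 was then 3.39, against 3.52 with all libraries. The control call on D70 ended with the replicate number as a block (adjusted p = 0.0633 by edgeR). The control call was lost in 10 of the 16 fits that left out 1 library, among them those without either D0 control library (0.125 and 0.189) and the second D70 control library (0.497), and without the 3 libraries (0.465). The D30 call in TMG cells was lost in 5 of the 16 (adjusted p up to 0.152) and without the 3 libraries (0.0549).

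The D70 TMG libraries, with 79 and 83 counts of DLX6-AS1, had 3679 and 59560 CPM of mesenchymal markers. In D70 control and D30 TMG cells the library higher in these markers had the more counts of DLX6-AS1, 27 against 2 and 14 against 4, and the part of those cells was not tested. The protein-coding DLX genes lie beside it. DLX5 had at most 3.502 CPM in any library before D70 and then 0 and 1.77 CPM in control and 0.711 and 10.7 CPM in TMG cells, the last in the library where DLX6-AS1 was also highest, and DLX6 reached 2.87 CPM there. Neither was called over D0 in control cells, nor were SEM1 and SDHAF3. In TMG cells DLX6, with 0 and 1 counts on D0 and 8 and 31 on D70, was called on D70 over D0 (adjusted p = 0.0118 by edgeR), and DLX5 was not (0.0889). Of the GABA neuron markers, GAD2 stayed at or under 0.961 CPM in all libraries, and the sum of the 7 on D70 was 114 and 11.99 CPM in control and 51.4 and 12.1 CPM in TMG cells. The sum was highest, at 157 CPM, in a D30 control library with 0.376 CPM of DLX6-AS1.

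**Figure D4:**
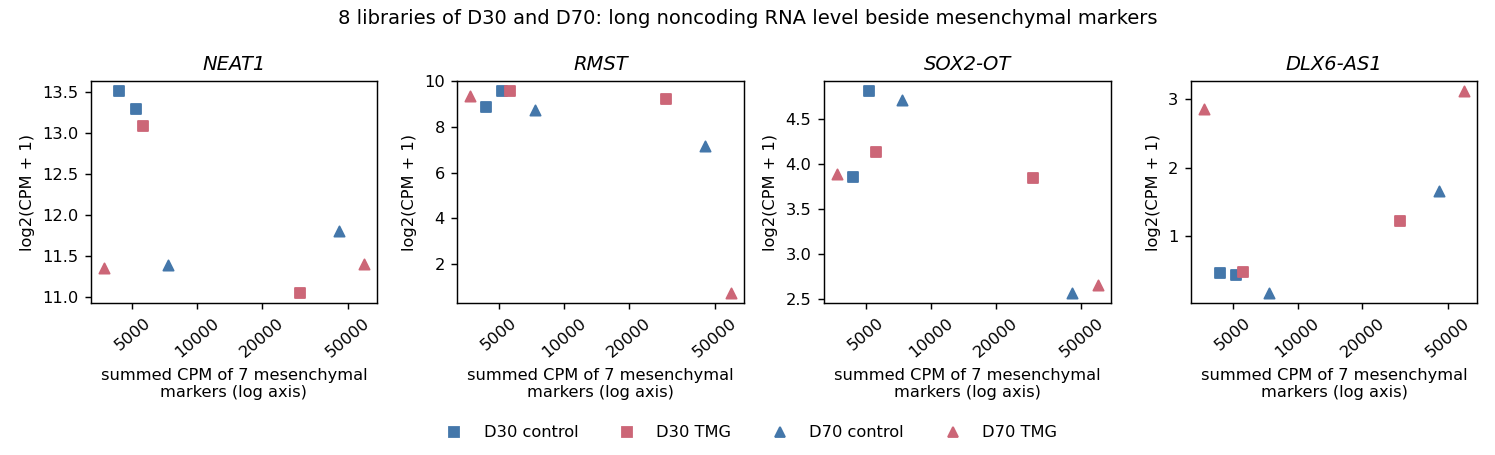
Level of NEAT1, RMST, SOX2-OT and DLX6-AS1 as log2(CPM + 1) in the 8 libraries of D30 and D70, against the summed CPM of 7 mesenchymal markers on a log axis. The 3 libraries at the right, from 29842 to 59560 CPM of markers, hold the lowest NEAT1 of D30, the lowest RMST and SOX2-OT of D70, and DLX6-AS1 of 1.33 to 7.68 CPM; the TMG library at the left has 6.24 CPM of DLX6-AS1.

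The question of the study was what TMG does to gene expression on each day. No member was called between TMG and control cells at any stage, where edgeR called 0% of all genes tested. At an unadjusted p under 0.05, the share of genes that passed was 1.26%, 2.48%, 12% and 5.49% in the order of the days, and of the 7 members 0 passed up to D30 and 1, DLX6-AS1, at the last day. These fits had no block for the replicate number. With it as a block within a day, edgeR called 233 genes on D30 and 1 on D70, and 0 members. The members at an unadjusted p under 0.05 were then NEAT1 and KCNQ1OT1 on D30 and DLX6-AS1 on D70. DESeq2 called 5, 11, 587 and 52 genes on the 4 days and 0 of the members. In none of the 6 tests of a difference in the TMG effect between days did a member pass, and the lowest adjusted p was 0.976.

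On D30 the 2 TMG libraries did not overlap with the control libraries for NEAT1 and KCNQ1OT1, both lower, and DLX6-AS1, higher, where 44.1% of all genes did not overlap. NEAT1 gave a log2 fold change of -1.004 (SE 0.56, unadjusted p = 0.0994, adjusted p = 0.505 by edgeR), KCNQ1OT1 -0.59 (SE 0.40, adjusted p = 0.611) and MALAT1 -0.51 (SE 0.34, adjusted p = 0.596). DLX6-AS1, with 4 and 7 counts in control and 4 and 14 in TMG cells, gave 1.23 (SE 1.18, adjusted p = 0.742), and 0.0998 (adjusted p = 1) without the second TMG library. Without that library, the one high in mesenchymal markers, NEAT1, KCNQ1OT1 and MALAT1 were at -0.32, -0.23 and -0.12, and without the first they were -2.36 (adjusted p = 0.0672), -1.07 and -1.05. The part that the marker-high cells had in the lower values was not tested. RMST was at 0.15 (SE 1.45), SOX2-OT at -0.44 (SE 0.65) and MIAT at -0.08 (SE 0.59), each smaller than its SE. With either TMG library of D70 left out, RMST stayed at 0.15 with an SE of 0.42.

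On D70, DLX6-AS1 was 6.14-fold higher with TMG, a log2 fold change of 2.62 (SE 1.05, unadjusted p = 0.0317, adjusted p = 0.894 by edgeR), with both TMG libraries above both of control. It was the 1 member without overlap on that day, where 22.1% of all genes had none. Without the second control library the value was 5.68 (adjusted p = 0.492), and without the first it was 1.68 (0.796). RMST, at 0.22 with all libraries, was at 1.22 (adjusted p = 0.864) without the second TMG library and at -8.77 (adjusted p = 0.00229) without the first, the 1 setting in which a member was called for TMG within a day, and this call rested on the library with 7 counts of RMST. MIAT, SOX2-OT, KCNQ1OT1, NEAT1 and MALAT1 were at -0.75, -0.67, -0.52, -0.23 and 0.09 on D70. Without the 3 libraries, which leaves 1 library in each arm, they were at 0.60, -0.87, -0.041, -0.035 and 0.0098, and RMST was at 0.64 and DLX6-AS1 at 5.52 (adjusted p = 0.20 by edgeR). On D0 and D12 the TMG libraries of RMST were both above the control libraries, at 0.19 and 0.47 (SE 1.45 for each, adjusted p = 1 for each), on days where 36.6% and 34.3% of genes did not overlap. The other members' differences on D0 and D12 lay between -0.40 and 0.32, other than DLX6-AS1 on D0, which had 1 count.

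**Figure D5:**
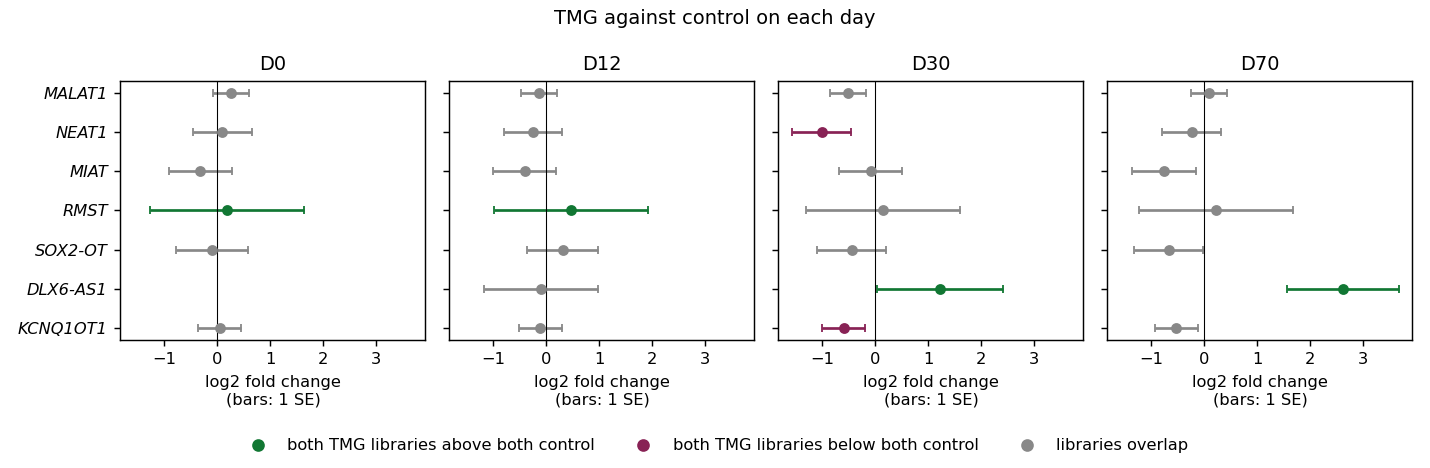
Log2 fold change of TMG over control for each member on D0, D12, D30 and D70, with bars of 1 SE from edgeR; the colour of a point shows whether the 2 TMG and 2 control libraries overlapped. The farthest point from 0 is DLX6-AS1 on D70, at 2.62, and DLX6-AS1 on D0 is left out for its 1 count.

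The genes for proteins of the nuclear bodies were not called for TMG either. On D30, SFPQ was at 387 ± 167 CPM (SD, n = 2) with TMG and 181 ± 7.44 CPM in control cells, 1.10 on the log2 scale (unadjusted p = 0.00273, adjusted p = 0.213 by edgeR), and EWSR1 differed by 0.61 (adjusted p = 0.22). SRSF3 differed by 0.81 and SRSF2 by 0.60. They were named for low p-values. Of the 13 genes for paraspeckle proteins, 11 were higher and 2 lower with TMG on both D0 and D12. On D30 it was 9 and 4, and on D70 8 and 5. Of the 16 genes for speckle proteins, 7 were higher and 9 lower on D0 and on D30. It was 8 and 8 on D12, and 13 and 3 on D70. In the order of the days, the median of the paraspeckle list was 0.14, 0.067, 0.12 and 0.031. That of the speckle list was -0.041, 0.0034, -0.027 and 0.089, where that of all genes was -0.0021, 0.0028, 0.011 and -0.010. The summed paraspeckle level was higher in both TMG libraries than in both control libraries on every day, a difference that was not tested. It was 4610 and 4486 against 4174 and 4229 CPM on D0, and 3350 and 3660 against 3293 and 3239 CPM on D12. SOX2 was lower with TMG on D30, at -1.39 (SE 0.45, unadjusted p = 0.0111, adjusted p = 0.276). Both TMG libraries were below both of control, on a day where 44.1% of all genes did not overlap. The second of these TMG libraries is the one with 29842 CPM of mesenchymal markers, whose part was not tested.

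Other long noncoding RNAs showed how the cells changed around these 7. Of 5 that mark stem cells, 4 were called lower on D12 over D0 in control cells and 3 on D30, against 9.71% and 16.7% of all genes tested. ESRG, an RNA of undifferentiated human stem cells, went from 585 ± 194 CPM (SD, n = 2) on D0 to 0.834 ± 0.137 CPM on D12 (adjusted p = 0.00012 by edgeR), and LINC00678 from 65.5 ± 19.8 CPM to 0.0793 ± 0.0427 CPM. Of 9 tested RNAs known from neural tissue, 2 were called higher at D12, 2 at D30 and 4 at D70, with 0 called lower, where 6.97%, 14% and 15% of all genes tested were called higher. EMX2OS, antisense to the cortical gene EMX2, rose by 3.73 (SE 0.64, adjusted p = 0.00452) on D12 and LINC00632, from which the circular RNA CDR1as is made, by 1.61 (SE 0.42, adjusted p = 0.0272). SIX3-AS1 and OTX2-AS1 rose by 4.46 (0.017) and 4.57 (0.0454) on D70. In the second TMG library of D70, 6 of the 10 RNAs in this list's counts had none.

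Among 13 broadly expressed long noncoding RNAs, 3 were called lower on D12 and 0 higher, 5 lower and 2 higher on D30, and 4 lower and 0 higher on D70. Over all genes, the shares called on the 3 days were 9.71%, 16.7% and 14.7% lower and 6.97%, 14% and 15% higher. SNHG1 and GAS5, hosts of small nucleolar RNAs, fell by 1.46 (adjusted p = 0.00358) and 1.90 (0.00745) on D12, and DANCR fell by 2.44 (0.0011) on D30. NORAD, which binds PUMILIO proteins, rose by 1.00 (SE 0.23, adjusted p = 0.00836) on D30. The list's median was -0.59 on D12 and -0.70 on D30, where MALAT1 was at 2.56 and 3.37 and NEAT1 at 4.21 and 5.09.

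Over the 16 libraries, the log2 CPM of MALAT1 and NEAT1 went together with a Pearson correlation of 0.972, and KCNQ1OT1 correlated with them at 0.780 and 0.767. All other pairs of members lay between -0.444 and 0.611. The libraries share days and treatments, so these values describe the course and carry no test. The genes of all 24249 most like each member by the same measure were ABCA5 (0.986), GASK1B (0.980) and CAPN7 (0.976) for MALAT1, and MALAT1 itself, MCUB (0.971) and FAM120B (0.969) for NEAT1. MIAT had ZNF37A (0.868), TRMT10B (0.860) and NANOGP5 (0.855). RMST was most like ASTN1 (0.969), OTX2 (0.963) and CFAP91 (0.963), and SOX2-OT most like HSPA12A (0.957), JAZF1 (0.951) and UICLM (0.950). For DLX6-AS1 they were FIBIN (0.904), GRID1 (0.896) and VSTM4 (0.892), and for KCNQ1OT1 ZRANB1 (0.957), PPM1K (0.950) and BBIP1 (0.947).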

How the data were processed

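Per the labels, reads were aligned with bowtie2 to hg19 and estimated with RSEM 1.2.12; the authors deposited these estimated counts as whole numbers for 57736 Ensembl genes of GRCh37.p13, not normalized. Whether counting used strand is not given in the sources used here, and the kit does not mark it. Of the genes, 14593 had no count and 55501 had a symbol. Samples were grouped by title; for 8 libraries, the second control and the first TMG library of every day, a separate treatment tag names the other arm. The column names of the counts split the libraries as the titles do. By the tags, the TMG arm of each day would be its 2 second libraries. On D70 these are the ones with 45349 and 59560 CPM of mesenchymal markers. All comparisons of TMG with control given here hold for the grouping by title. No column of another series was present (0).

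Genes were kept by filterByExpr (minimum count 10, minimum total 15), which left 24249, and tested with edgeR 4.0.16 (TMM factors 0.872 to 1.16, robust quasi-likelihood F-test, 1 mean for each of 8 groups, 8 residual degrees of freedom) at a false discovery rate of 5%. With 2 libraries a group, p-values measure the spread between these libraries. Alternatives were RLE normalization, library totals alone, no filter, DESeq2 1.42.0, the replicate number as a block, the 4 libraries of a day, each library left out and, chosen after seeing the data, the 3 libraries highest in mesenchymal markers left out. Tests were run on simulated data first. Other tools were R 4.3.3, limma 3.58.1, Python 3.11.15, pandas 2.3.3, numpy 2.4.6, scipy 1.17.1 and matplotlib 3.10.9.

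The named genes are the 7 members, their neighbours, from each other list up to 4 that passed by smallest adjusted p (2 by smallest p where none passed), and the 3 most like each member by log2 CPM (prior count 2). A few genes that the rule names are left out of the text. The members and lists were chosen with earlier results of these data known. Sequences were read from GRCh37 at GENCODE v44lift37 coordinates. Fold changes for genes at 0 on D0 use 3 counts over the pair in their place.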

Additional observations from a re-analysis of the deposited data

How the results depend on the processing

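Values are log2 fold changes, or numbers of the 7 members called. With library totals alone, SOX2-OT with TMG on D0 was 0.0031, MALAT1 with TMG on D70 -0.013, MIAT in TMG cells on D30 over D0 -0.016, and 0 members and 2812 genes were called in control cells on D70 over D12. Without the filter on low counts, 3 members and 5691 of 43143 genes were called on D70 over D0, and 0 members and 1986 genes on D70 over D12, in control cells. DESeq2 called 2 in control cells on D30 over D12 and 1 on D70 over D30, and in TMG cells 1 on D30 over D12 and 1 on D70 over D12, comparisons in which it called 2398, 1705, 1142 and 3014 genes against 874, 93, 124 and 1249 by edgeR. Without the 3 libraries highest in mesenchymal markers, MIAT was 0.16 and 0.60 with TMG on D30 and D70, and in control cells -1.36 on D70 over D0 and -1.25 on D70 over D30. DLX6-AS1 was -2.23 on D70 over D12 and -1.44 on D70 over D30, KCNQ1OT1 -0.20 on D70 over D12 and SOX2-OT 0.31 on D70 over D30. Members called in that setting were 4, 3, 3 and 2 in control cells (D12 over D0, D30 over D12, D70 over D12, D70 over D30) and 4, 5, 2 and 3 in TMG cells (D12 over D0, D70 over D0, D30 over D12, D70 over D12), where edgeR called 8234, 4186, 6293 and 2424 genes and 8040, 8913, 1300 and 3638 genes, each count above that with all libraries. The cause of each shift was not tested beyond the libraries left out. RLE normalization and the fits of 4 libraries turned no direction and took no count of members past 1.5 times.

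The replicate number as a block within a day gave RMST with TMG on D70 -2.53, and called 233 genes for TMG on D30 and 1 on D70 but 0 members. With this block, NEAT1 with TMG on D30 was -1.33 (SE 0.50, unadjusted p = 0.0327, adjusted p = 0.208 by edgeR). KCNQ1OT1 was -0.64 on D30 (SE 0.26, unadjusted p = 0.0411, adjusted p = 0.229), and DLX6-AS1 was 3.12 on D70 (SE 0.88, unadjusted p = 0.0111, adjusted p = 0.311). Same-numbered libraries of a day moved together by over 0.1 (Pearson correlation of replicate differences) on 3 of 4 days (0.367 on D12, 0.223 on D30 and 0.607 on D70, against 0.0453 on D0) and in 7 of 28 pairs of groups. The labels tie the numbers to no shared culture or day, and the numbers were not taken as pairs because not every pair of groups was over 0.1. Most of those pairs are of different days, so for TMG within a day the values with the block stand beside those without it. With the block, control cells on D70 over D0 had 4 members and 7392 genes called, DLX6-AS1 being lost (adjusted p = 0.0633 by edgeR), and the block changed no other call of a member.

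Leaving out 1 library at a time gave these ranges, for values over the libraries of the comparison and for numbers of members or genes called over all 16 libraries. With TMG on D0, MIAT ran from -0.66 to 0.16, DLX6-AS1 from -3.08 to 0, SOX2-OT from -0.21 to 0.065, NEAT1 from -0.37 to 0.86 and KCNQ1OT1 from -0.20 to 0.39. On D12, DLX6-AS1 ran from -1.73 to 0.62, NEAT1 from -0.49 to 0.054, MALAT1 from -0.30 to 0.021 and KCNQ1OT1 from -0.50 to 0.44. On D30, MIAT ran from -0.43 to 0.19, SOX2-OT from -0.86 to 0.15 and RMST from -0.16 to 0.55. On D70, MIAT ran from -1.50 to 0.90, SOX2-OT from -1.53 to 0.96, RMST from -8.77 to 1.24 and KCNQ1OT1 from -0.93 to 0.051. In control cells MIAT ran from -0.49 to 0.36 on D30 over D0, -1.39 to 0.99 on D70 over D0, -1.75 to 0.65 on D70 over D12 and -1.28 to 1.14 on D70 over D30. D70 over D12 ran from -2.25 to 1.75 for DLX6-AS1, -0.18 to 0.13 for MALAT1, -0.39 to 1.19 for RMST and -0.23 to 0.89 for KCNQ1OT1, and D70 over D30 from -1.47 to 2.55 for DLX6-AS1 and -2.05 to 0.28 for SOX2-OT. In TMG cells over D0, MIAT ran from -0.19 to 0.61, -0.27 to 0.36 and -0.48 to 0.048 on the 3 days, SOX2-OT from -0.055 to 0.46 on D12 and RMST from -6.99 to 3.0002 on D70. Members called ran from 0 to 1 with TMG on D70, 2 to 6 on D70 over D0, 0 to 2 on D30 over D12 and 0 to 2 on D70 over D12 in control cells, 2 to 6 on D30 over D0, 3 to 5 on D70 over D0, 0 to 1 on D70 over D12 and 0 to 1 on D70 over D30 in TMG cells, and 0 to 1 for the TMG effect of D70 less that of D0, D12 or D30. Genes called over the same fits ran from 0 to 148, 0 to 129 and 0 to 362 for these last 3, from 0 to 175 with TMG on D30, 0 to 799 with TMG on D70, 1021 to 5259 on D12 over D0, 3614 to 8963 on D30 over D0, 3678 to 8828 on D70 over D0, 0 to 1460 on D30 over D12, 343 to 4219 on D70 over D12 and 0 to 690 on D70 over D30 in control cells, and 836 to 5193 on D12 over D0, 2630 to 8188 on D30 over D0, 2837 to 7650 on D70 over D0, 0 to 547 on D30 over D12, 79 to 2918 on D70 over D12 and 0 to 1639 on D70 over D30 in TMG cells.

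Counts were few for DLX6-AS1 and, before D30, for SOX2-OT. The 2 libraries of a group lay far apart for RMST, MIAT, SOX2-OT and DLX6-AS1, above all on D70.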
